A study of Mus musculus with 3 samples.

Results

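Angiotensinogen and 5 genes that process or sense its peptides, Agt, Ace, Enpep, Mme, Agtr1a and Agtr2, were followed through the stromal cells of mouse subcutaneous fat. They are 6 named genes of the 32285 in the count files, and they were selected on their measured CPM levels and shares of cells in the 3 cell gates below. Their values between those gates are therefore a description, without a test. The cells were CD31- CD45- cells of the stromal vascular fraction (SVF), the digest that remains when floating adipocytes are removed, from the inguinal fat of 3 wild-type male C57BL/6J mice aged 8 weeks. CD31 marks endothelial cells and CD45 marks leukocytes. Each mouse gave 1 droplet library, and the mice form 1 group under 1 condition, so the comparisons are between kinds of cells within the mice. The values are unique molecular identifiers (UMIs), each of which stands for 1 captured RNA molecule.

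Angiotensinogen is the secreted precursor of the renin-angiotensin system. Renin cuts angiotensin I from it, and angiotensin-converting enzyme (Ace) trims that to angiotensin II, the active peptide that raises vascular tone. Aminopeptidase A (Enpep) and neprilysin (Mme) shorten angiotensin peptides further, and neprilysin also degrades natriuretic peptides, kinins and endothelins. Agtr1a encodes the main receptor of angiotensin II, and Agtr2 a second receptor that often opposes it. White fat is known as a source of angiotensinogen outside the liver.

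Each of 3 gates on raw UMIs marked a state of adipose stromal cells that earlier work in this field has named. The progenitor gate took cells with at least 3 UMIs of Dpp4 and Pi16 together and at most 1 of Icam1 and Fabp4. The preadipocyte gate took cells with at least 4 UMIs of Icam1 and Fabp4 together and at most 1 of Dpp4. The regulatory gate, for the adipocyte regulatory cells (Aregs) of the literature, took cells with at least 1 UMI of Clec11a and of Fmo2, and at most 1 each of Fabp4 and Dpp4. In mice 1, 2 and 3 the progenitor gate held 7426, 3193 and 9312 cells. The preadipocyte gate held 2300, 1489 and 1946 cells. The regulatory gate was small, with 319, 503 and 500 cells. A further 2988, 1348 and 3517 cells met none of the 3 gates and are called ungated. UMIs were summed per mouse and gate and scaled to a total of 1000000 (CPM).

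The promoters of Agt, Ace and Enpep are shown because each of these members was highest in a different one of the 3 gates. They are the 150 bases before the RefSeq start in GRCm38.p6, written 5′ to 3′ on the gene's strand, with TATAAA or CCAAT on either strand in capitals (TTTATA and ATTGG on the opposite strand, no overlaps).
Agt: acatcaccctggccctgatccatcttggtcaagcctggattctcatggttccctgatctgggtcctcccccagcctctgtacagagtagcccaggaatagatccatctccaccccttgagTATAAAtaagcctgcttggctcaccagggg
Ace: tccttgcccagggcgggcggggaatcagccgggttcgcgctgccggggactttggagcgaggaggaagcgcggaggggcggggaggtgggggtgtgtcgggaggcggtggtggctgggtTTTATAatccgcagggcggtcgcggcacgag
Enpep: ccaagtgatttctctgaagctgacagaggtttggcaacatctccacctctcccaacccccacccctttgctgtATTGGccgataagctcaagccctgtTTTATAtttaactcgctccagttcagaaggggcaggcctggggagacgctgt
The Agt window lies at chr8:124569707-124569856 on the minus strand, the Ace window at chr11:105967798-105967947 on the plus strand, and the Enpep window at chr3:129332750-129332899 on the minus strand. Agt held TATAAA on its own strand, Ace and Enpep held it on the opposite strand, and Enpep also held CCAAT. Among 32851 such windows of all genes, 7.57% held TATAAA and 24.5% held CCAAT. RefSeq windows were found for 5 of the 6 members, 8 windows in all, of which 3 held TATAAA and 3 held CCAAT. A match describes the letters and is not a binding site.

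In the GENCODE annotation of the same build, all 6 members are protein-coding genes whose exons overlap no other gene on their strand. Agt (ENSMUSG00000031980) spans chr8:124556534-124569706, Ace (ENSMUSG00000020681) chr11:105967945-105989964 and Enpep (ENSMUSG00000028024) chr3:129269175-129332720. Mme (ENSMUSG00000027820) spans chr3:63241537-63386030, Agtr1a (ENSMUSG00000049115) chr13:30336441-30382867 and Agtr2 (ENSMUSG00000068122) chrX:21484544-21489164. The libraries were read at the 3′ end of transcripts and the counts have no length scale, so levels are compared between cells and not between genes.

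The gates held their marker genes, which include the genes that define them. The 6 progenitor markers summed to 7202 to 7802 CPM in the progenitor gate and to at most 557 CPM in the others. Wnt2, Cd55, Anxa3 and Sema3c, which the gate did not use, were all higher there. The 6 preadipocyte markers summed to 6561 to 7089 CPM in the preadipocyte gate, with Pparg, the master regulator of adipogenesis, at 48.6 ± 5.03 CPM (SD, n = 3 mice) against 3.48 ± 0.474 in the progenitor gate. The regulatory gate had 2375 to 2654 CPM of its 6 markers, and F3, which encodes the surface antigen CD142, stood there at 336 ± 149 CPM against 77.5 ± 27.6 in the preadipocyte gate. The preadipocyte markers also reached 2525 to 3329 CPM in the regulatory gate. All 5 markers of mature adipocytes together stayed between 0 and 5.92 CPM in the 3 gates, and Adipoq and Lep had no UMI in the progenitor and regulatory gates. Some cells met 2 gates, with 174 cells in the preadipocyte and regulatory gates and 90 in the progenitor and regulatory gates. The libraries shared 52 to 81 barcodes pairwise. Mouse 2 was the deepest, with a median of 12192.5 UMIs per kept cell against 7392.5 and 6667 in mice 1 and 3.

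Agt, the precursor itself, was highest in the regulatory gate. It was at 129, 194 and 141 CPM there in mice 1, 2 and 3. In the preadipocyte gate it was at 21.8, 46.8 and 37.4 CPM, and in the progenitor gate at 3.02, 4.76 and 3.71 CPM. The 3 gates did not overlap over the mice, and mouse 2 was the highest in each of them. The mean log2 ratio of the regulatory to the progenitor gate was 5.34 ± 0.085 (SD, n = 3), or 40.5-fold. The preadipocyte gate exceeded the progenitor gate by a log2 ratio of 3.16 ± 0.266, and the regulatory gate exceeded the preadipocyte gate by 2.18 ± 0.341.

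Agt was detected in part of the cells of each gate, and a cell without an Agt UMI need not lack the transcript. At 1 fixed depth of 3000 UMIs per cell, 26.4% ± 4.13 of regulatory cells had an Agt UMI, against 7.05% ± 1.98 of preadipocyte and 0.956% ± 0.173 of progenitor cells. Without thinning the shares were 36.5%, 13.0% and 2.16%, and in the regulatory gate they were 31.0%, 47.7% and 30.8% in mice 1, 2 and 3, highest in the deepest library. Some regulatory cells held many copies at full depth, mostly in mouse 2, the deepest library. There 15.5% of them had 5 or more Agt UMIs, against at most 3.45% in mice 1 and 3. The highest regulatory cell had 17, 31 and 10 Agt UMIs in mice 1, 2 and 3. Such cells were not particular to this gate. In the preadipocyte gate of mouse 2, 4.37% had 5 or more and the highest cell also had 31. Because the regulatory gate is small, it held only 23.9% ± 13.1 of all Agt UMIs of the kept cells. The preadipocyte gate held 29.2% ± 4.75, the progenitor gate 9.78% ± 2.45, and the ungated cells 42.1% ± 10.8.

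**Figure D1:**
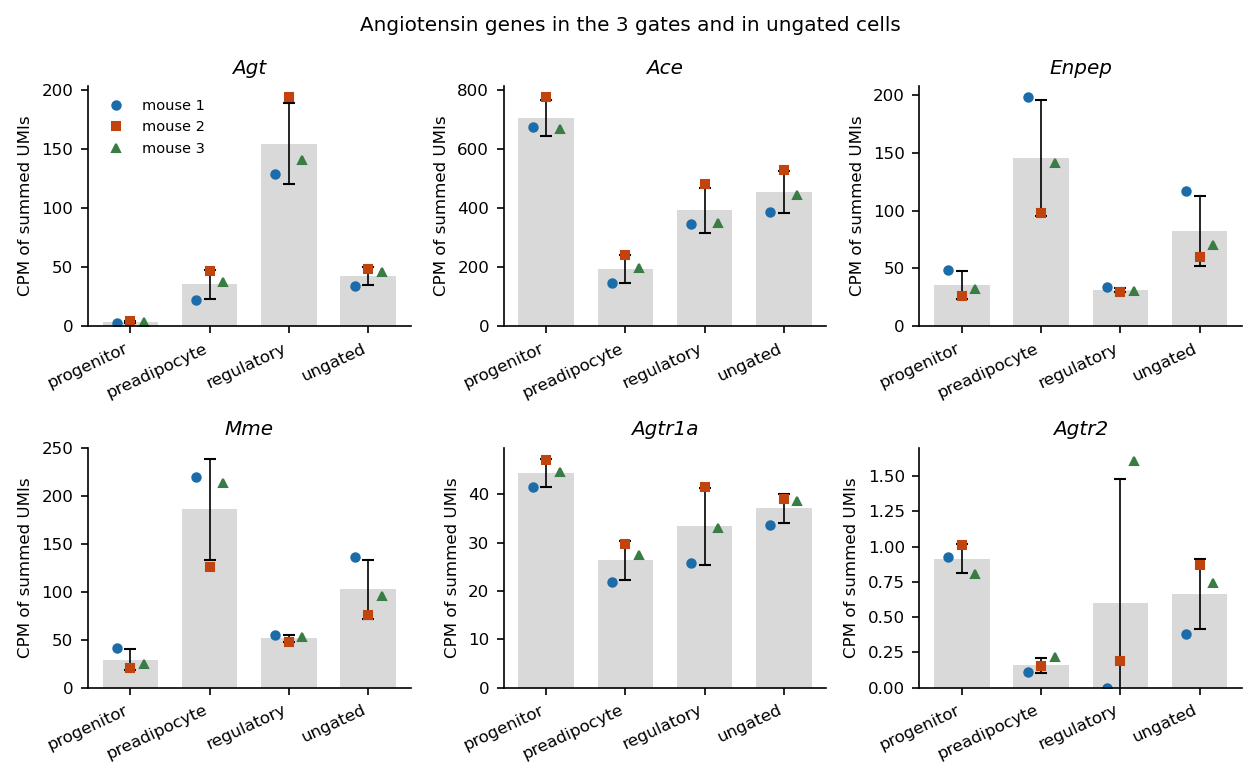
Level of each of the 6 genes (CPM of summed UMIs, y axis, scaled per gene) in the progenitor, preadipocyte and regulatory gates and in ungated cells; bars are means, error bars the SD over 3 mice and symbols single mice. Agt is highest in the regulatory gate, Ace and Agtr1a in the progenitor gate, and Enpep and Mme in the preadipocyte gate.

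Ace, the enzyme that makes angiotensin II, was highest in the progenitor gate, where Agt was lowest, and was lowest in the preadipocyte gate. It was at 674, 776 and 667 CPM in the progenitor gate of mice 1, 2 and 3. The regulatory gate had 347, 481 and 349 CPM, and the preadipocyte gate had 146, 242 and 196 CPM. No gate overlapped another. The preadipocyte gate was lower than the progenitor gate by a log2 ratio of -1.89 ± 0.283, a 3.70-fold difference. The regulatory gate was lower than the progenitor gate by -0.86 ± 0.148 and higher than the preadipocyte gate by 1.03 ± 0.213.

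Most progenitor cells carried Ace transcripts. At 3000 UMIs, 84.6% ± 2.15 of them had an Ace UMI, against 58.9% ± 5.91 of regulatory and 38.8% ± 6.58 of preadipocyte cells. The median progenitor cell with Ace held 4 to 9 Ace UMIs in the 3 mice at full depth. The progenitor gate held 73.0% ± 5.55 of all Ace UMIs of the kept cells.

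Enpep and Mme, which shorten angiotensin peptides, were both highest in the preadipocyte gate. Enpep was at 198, 97.8 and 142 CPM there in mice 1, 2 and 3. It was at 48.9, 26.2 and 31.8 CPM in the progenitor gate and at 33.7, 29.9 and 30.2 CPM in the regulatory gate. The latter 2 gates overlapped, and their log2 ratio of -0.14 ± 0.368 was positive in mouse 2 and negative in mice 1 and 3. Between the preadipocyte and progenitor gates the Enpep ratio was 2.03 ± 0.127 on the log2 scale, a 4.07-fold difference.

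Mme was at 220, 126 and 213 CPM in the preadipocyte gate. It was at 54.8, 47.5 and 52.7 CPM in the regulatory gate and at 41.9, 20.8 and 25.1 CPM in the progenitor gate. All 3 gates were apart. The preadipocyte gate exceeded the progenitor gate by a log2 ratio of 2.69 ± 0.356 and lay above the regulatory gate, whose ratio to it was -1.81 ± 0.350. In mouse 2, Enpep and Mme were at their lowest in each gate, while Agt, Ace and Agtr1a were at their highest. At 3000 UMIs, Enpep was seen in 34.0% ± 7.97 of preadipocyte cells and Mme in 41.3% ± 7.74. In the progenitor and regulatory gates the shares were 10.1% and 8.67% for Enpep, and 7.86% and 12.5% for Mme.

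Of the receptors, Agtr1a was at 41.4, 47.2 and 44.7 CPM in the progenitor gate. It was at 25.7, 41.6 and 33.0 CPM in the regulatory gate, and at 21.9, 29.7 and 27.5 CPM in the preadipocyte gate. The preadipocyte gate lay below the progenitor gate without overlap, by a log2 ratio of -0.76 ± 0.137. The regulatory gate overlapped both of the others, although within each mouse it lay between them. Agtr2 was nearly silent, with 190 UMIs in all 34577 kept cells, 139 of them in the progenitor gate. It was at 0.927, 1.01 and 0.807 CPM there and at 0.108, 0.153 and 0.216 CPM in the preadipocyte gate, where each value rests on 2 or 3 UMIs. In the regulatory gate it had no UMI in mouse 1, where 3 UMIs would be 1.71 CPM, and 0.188 and 1.61 CPM in mice 2 and 3.

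The ratio kept 1 sign in all 3 mice for 6 of 6 members between preadipocyte and progenitor gates, for 4 of 6 between regulatory and progenitor gates and for 5 of 6 between regulatory and preadipocyte gates. Of the 13385 genes tested, 76.8%, 64.4% and 55.3% did so in these comparisons. The 2 gates did not overlap over the mice for 6, 3 and 4 members, and for 43.2%, 38.2% and 26.3% of all genes. Nothing is read from the members' counts, since the members were selected on their levels in these gates.

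**Figure D2:**
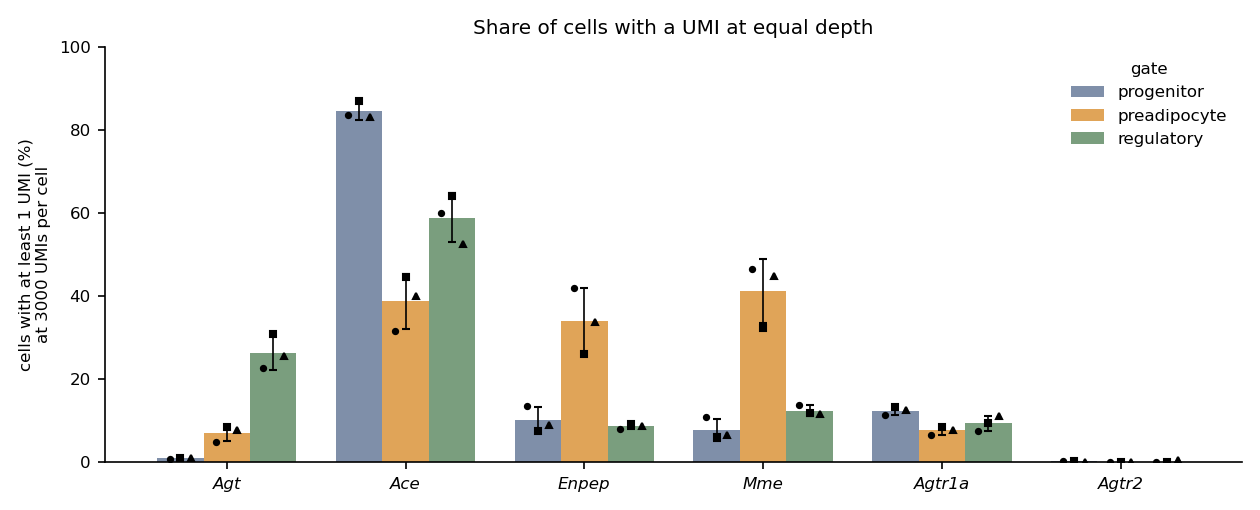
Share of cells with at least 1 UMI of each gene (%, y axis) after each cell was thinned to 3000 UMIs; bars are means, error bars the SD over 3 mice, and circles, squares and triangles are mice 1, 2 and 3. Ace is seen in 84.6% of progenitor cells and 38.8% of preadipocyte cells, while Agt is seen in 26.4% of regulatory cells and 0.956% of progenitor cells.

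Cells with exactly 3 UMIs of Dpp4 and Pi16, just inside the progenitor gate, had 25.6 ± 15.3 CPM of Agt and 569 ± 64.1 of Ace, and those with 2 UMIs, just outside, had 47.4 ± 0.640 and 462 ± 59.1. Cells with 4 UMIs of Icam1 and Fabp4, just inside the preadipocyte gate, had 145 ± 55.6 CPM of Mme and 120 ± 47.8 of Enpep, against 129 ± 54.9 and 102 ± 41.0 at 3 UMIs, just outside. Cells just inside the regulatory gate, with 1 UMI of Clec11a, had 129 ± 26.1 CPM of Agt, and cells with Fmo2 but no Clec11a had 86.0 ± 22.6.

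Further marker gates, which may share cells with the first 3, placed the members in other states. Agt had its highest mean in the regulatory gate, and no other gate with cells in all mice overlapped it. It was followed by interferon-response cells (at least 4 UMIs of Ifit1, Ifit3 and Rsad2) at 46.6 CPM, mural cells at 42.9 CPM, ungated cells at 42.7 CPM and preadipocytes at 35.3 CPM, which overlapped each other from mouse to mouse. For Ace, the progenitor gate at 706 ± 60.9 CPM, cells with Nr4a3 and Fosl1 at 669 CPM, cells with Cilp and Myoc at 634 CPM and cells with Krtdap and Sbsn at 626 CPM overlapped their neighbours, and these stood apart from the interferon-response cells at 457 CPM and all below. Between 69.0% and 90.3% of the cells of those 3 marker gates also met the progenitor gate. Enpep was highest in cells with Cited1 and Ptn, at 159 CPM with a range of 80.7 to 307, which overlapped the preadipocyte gate at 146 ± 50.3. Mme was highest in the preadipocyte gate at 186 ± 52.6, overlapping the ungated cells at 103 ± 31.1.

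Agtr1a was highest in mural cells (Rgs5, Kcnj8 or Notch3, without Pdgfra), the pericytes and smooth muscle cells of small vessels. Its level there was 78.6 CPM with a range of 57.1 to 109, apart from every other gate that followed it, but it rested on 20 UMIs in 35 cells. Of these 35 cells, 20 also met the preadipocyte gate, 5 the progenitor gate and 1 the regulatory gate. At 1000 UMIs per cell, 5.88% of mural cells had an Agtr1a UMI (exact 95% interval 0.720% to 19.7%), an interval that holds the 4.45% of progenitor cells. Agtr2 reached 2.16 CPM in the cells with Cilp and Myoc, with a range of 1.80 to 2.56, above its range in the progenitor gate. A single endothelial UMI gave a higher mean and is not read.

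Few cells could serve as a background for free RNA. The 77 kept cells with endothelial, leukocyte or Schwann cell markers and no Pdgfra had a median of 2184 UMIs, against 6180 to 8300 in the 3 gates, and 55 of the 63 endothelial cells also met the preadipocyte gate. At 1000 UMIs per cell, 68 of them could be used. Agt was seen in 0 of 68 cells, which allows a share of up to 4.41%, against 12.2% of regulatory, 2.83% of preadipocyte and 0.428% of progenitor cells. The regulatory share was thus above that limit and the others were not distinguishable from it. At full depth the 77 cells held 3 Agt UMIs, all in 1 cell, or 11.3 CPM, above the progenitor gate. Enpep was seen in 0 of 68 as well, against 13.0% of preadipocyte, 3.62% of progenitor and 2.44% of regulatory cells, the last 2 under the same limit. At full depth 5 of the 77 cells held 11 Enpep UMIs. The endothelial cells alone had a mean of 57.5 CPM (29.8 to 84.4), above the means of the progenitor and regulatory gates, though the ranges over the mice overlapped. Enpep in the progenitor and regulatory gates is therefore not read as expression either. Mme was seen in 4.41% (exact 95% interval 0.919% to 12.4%), an interval that holds its shares of 3.05% in progenitor and 4.12% in regulatory cells. The share of 17.4% in preadipocytes was above it. So few cells cannot tell free RNA from expression, and Mme in the progenitor and regulatory gates is read as neither. Ace was seen in 8.82% (3.31% to 18.2%), against 48.6%, 27.7% and 15.4% of progenitor, regulatory and preadipocyte cells, the last within that interval. Whether the Ace UMIs of the 68 cells were free RNA or expression was not tested. Agtr1a was seen in 1.47% (0.0372% to 7.92%), an interval that holds its shares of 2.61% to 4.45% in the 3 gates. These intervals cover counting error only.

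In the preadipocyte and regulatory gates, Ace was seen more often in cells with Agt than in cells without. At 1000 UMIs per cell, preadipocyte Agt and Ace and progenitor Agt were not distinguishable from the background cells above. Those cells are too few to tell free RNA from expression, for Ace as for Agt. The part of free RNA in the shares with Agt was not tested. Among preadipocytes at 3000 UMIs, Ace was present in 52.8%, 62.4% and 55.2% of cells with an Agt UMI in mice 1, 2 and 3. Among preadipocytes without Agt it was present in 30.6%, 43.0% and 38.7%. The share was higher in cells with Agt in each mouse, and the groups did not overlap. In the regulatory gate, Ace was present in 70.4% ± 8.54 of cells with Agt and in 54.9% ± 5.27 of those without, again higher in 3 of 3 mice. In the progenitor gate the shares were 80.9% ± 12.8 and 84.6% ± 2.13, with no common direction. Among ungated cells Ace was present in 65.6% ± 4.81 of cells with Agt and in 67.2% ± 4.21 of those without, lower in 3 of 3 mice.

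Mme went the other way from Agt in preadipocytes. It was present in 37.0%, 25.6% and 26.2% of the cells with Agt against 47.1%, 33.0% and 46.4% of those without, lower in each mouse. Enpep was at 28.1% ± 7.74 and 34.4% ± 7.88, also lower in 3 of 3 mice. The regulatory gate likewise had more Agt and Ace and less Enpep and Mme than the preadipocyte gate, and 174 cells met both gates. The part of such cells in these shares was not tested. Enpep and Mme were seen together more often: Mme was present in 44.6% ± 8.05 of preadipocytes with Enpep and in 39.6% ± 7.24 of those without, higher in 3 of 3 mice. In the progenitor gate Mme was present in 10.7% ± 4.38 of cells with Enpep and in 7.49% ± 2.33 of those without. In the regulatory gate it was present in 20.7% ± 0.634 and 11.7% ± 1.44, with 20 cells holding both. Both differences had this direction in 3 of 3 mice. In these 2 gates neither gene was distinguishable from the background cells above, and the part of free RNA in the pair was not tested. At this depth, 24.1% of progenitor, 38.8% of preadipocyte and 33.8% of regulatory cells had UMIs of 2 or more members. Cells of 1 mouse are not replicates, so these shares carry no test.

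**Figure D3:**
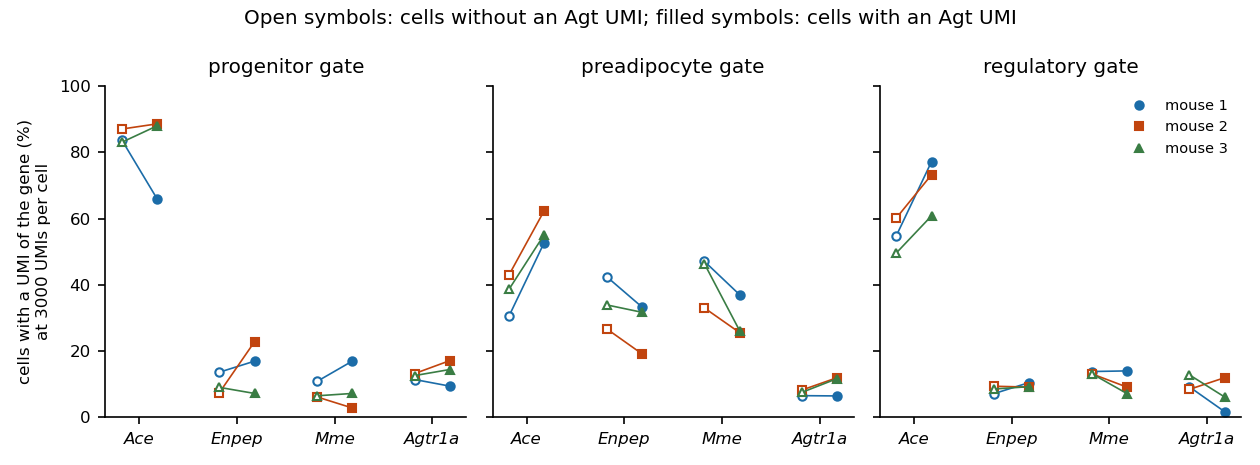
Share of cells (%, y axis) with a UMI of Ace, Enpep, Mme or Agtr1a among cells without (open symbols) and with (filled symbols) an Agt UMI, at 3000 UMIs per cell, in the progenitor, preadipocyte and regulatory gates; lines join the values of 1 mouse. In the preadipocyte gate Ace is higher and Mme is lower in cells with Agt in 3 of 3 mice.

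The study divides Icam1+ preadipocytes by Cd44, a hyaluronan receptor, which the gates did not use. It did so by clusters of cells and by sorting on surface protein. Here the members were tested between preadipocyte-gate cells with at least 2 Cd44 UMIs and those with 0. Cells between these limits were left out. The groups rest on RNA counts and were not matched to the study's populations. More UMIs of Agt and Ace were counted in the cells with Cd44. At 1000 UMIs per cell, the preadipocyte shares of both genes were not distinguishable from the background cells above. Their means of 35.3 and 194 CPM in the gate were above the 11.3 and 49.0 CPM pooled in those cells. The pooled levels rest on 3 and 13 UMIs, too few to tell free RNA from expression in those cells. The differences are given as changes in counts. Agt was at 23.3, 67.5 and 51.9 CPM in the Cd44 cells and at 21.6, 36.2 and 32.4 CPM in the others. It was higher in each of the 3 mice, by little in mouse 1, and the groups overlapped across mice. The log2 fold change was 0.75 ± 0.13 (SE), with adjusted p = 0.00135 in edgeR's quasi-likelihood test. Ace was at 157, 280 and 243 CPM against 145, 221 and 180 CPM, higher in 3 of 3 mice, with a log2 fold change of 0.39 ± 0.073 and adjusted p = 0.00283 in edgeR. These were 2 of the 5 members tested, both higher, where 18.7% of 11358 genes were called, 12.3% higher and 6.41% lower. Of those calls 65.7% were higher, and 42.2% under scaling by library size, where the median of all genes was -0.10. Of all genes, 54.4% kept 1 sign in 3 mice, as did Agt, Ace and Mme, and 18.3% did not overlap between the groups, as 0 of the 5 members did.

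The remaining members did not pass. Enpep had a log2 fold change of 0.18 ± 0.067 (edgeR adjusted p = 0.0834), Mme -0.13 ± 0.062 (edgeR adjusted p = 0.175) and Agtr1a 0.02 ± 0.12 (edgeR adjusted p = 0.922). Without mouse as a block, Agt (edgeR adjusted p = 0.507) and Ace (0.660) did not pass either. Under scaling by library size, Mme passed at -0.22 (edgeR adjusted p = 0.0242), while Agtr1a turned to -0.08 without passing. Depth and marker levels moved with this division. The median cell had 8836, 13836 and 7558 UMIs in the Cd44 group and 7859, 12617 and 7096 in the other. The 6 regulatory markers summed to 284, 593 and 394 CPM in the Cd44 cells and to 266, 477 and 315 CPM in the others of mice 1, 2 and 3, with UMIs of 6 of 6 markers in each. The 6 preadipocyte markers summed to 5269 to 6004 CPM against 7179 to 7491. The 8 genes of the response to tissue dissociation (Fos, Jun and others) summed to 10410 to 13752 CPM against 16621 to 19080. Without cells that met 2 gates, the fold change of Agt was 0.78 and that of Ace 0.37. The part of depth, of free RNA and of the other marker levels in the result was not tested.

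Among progenitors, Nr4a3 and Fosl1, transcription factors induced by stimuli, marked a further state, and cells with at least 3 of their UMIs were tested against cells with 0. Fewer UMIs of Mme and Enpep were counted in the Nr4a3 and Fosl1 cells. The pooled background cells above held 26.4 CPM of Mme, 41.4 of Enpep and 11.3 of Agt, against 29.3, 35.6 and 3.83 CPM on average in the progenitor gate. These background levels rest on 7, 11 and 3 UMIs, too few to tell free RNA from expression in those cells. The changes are therefore given as changes in counts and are not read as changes in expression by the progenitor cells. The part of free RNA was not tested. Mme was at 34.2, 16.1 and 20.8 CPM against 50.6, 25.95 and 36.2 CPM in mice 1, 2 and 3, lower in each mouse. Its log2 fold change was -0.55 ± 0.072 (edgeR adjusted p = 0.00141). Enpep was at 41.1, 22.3 and 27.7 CPM against 58.2, 31.6 and 42.5 CPM, with a log2 fold change of -0.42 ± 0.067 (edgeR adjusted p = 0.00376). The groups overlapped across mice for both genes, and the difference lies within each mouse.

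Counts of Agt fell too, from a level already low. It was at 2.72, 2.45 and 2.70 CPM against 3.54, 7.29 and 4.87 CPM, without overlap, and the log2 fold change was -0.81 ± 0.20 (edgeR adjusted p = 0.0232). The call of Agt was lost without mouse 3 (edgeR adjusted p = 0.0688), in DESeq2 (adjusted p = 0.0622), with cells thinned to 3000 UMIs (edgeR adjusted p = 0.157) and with gate limits raised by 1 UMI (0.0763), and without mouse as a block none of Mme (edgeR adjusted p = 0.531), Enpep (0.612) and Agt (0.242) passed. Ace was called higher by 0.18 ± 0.053 (edgeR adjusted p = 0.0432), but under scaling by library size its fold change was 0.04 with adjusted p = 0.489. Its levels were 689, 793 and 667 CPM against 662, 762 and 659 CPM. Agtr1a (-0.15, edgeR adjusted p = 0.093) and Agtr2 (0.33, edgeR adjusted p = 0.452) did not pass. The calls were 4 of 6 members, where 22.7% of 12620 genes were called. Of the members 1 was higher and 3 were lower, and of all genes 12.9% and 9.84%. Of all calls 56.7% were higher, and 25.2% under scaling by library size, where the median of all genes was -0.12. The groups did not overlap for Agt and Agtr1a, nor for 21.8% of all genes, and 5 members kept 1 sign in 3 mice, as did 62.9% of all genes. Median UMIs per cell were 7821, 12445.5 and 7039 against 6841, 11516.5 and 5984 in mice 1, 2 and 3. Beside these, the 6 preadipocyte markers summed to 410 to 489 CPM in the Nr4a3 and Fosl1 cells and 585 to 673 CPM in the others. The regulatory markers were at 151 to 262 CPM against 219 to 338, and the dissociation genes at 5162 to 7559 CPM against 12057 to 14049. Their part in the result was not tested.

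**Figure D4:**
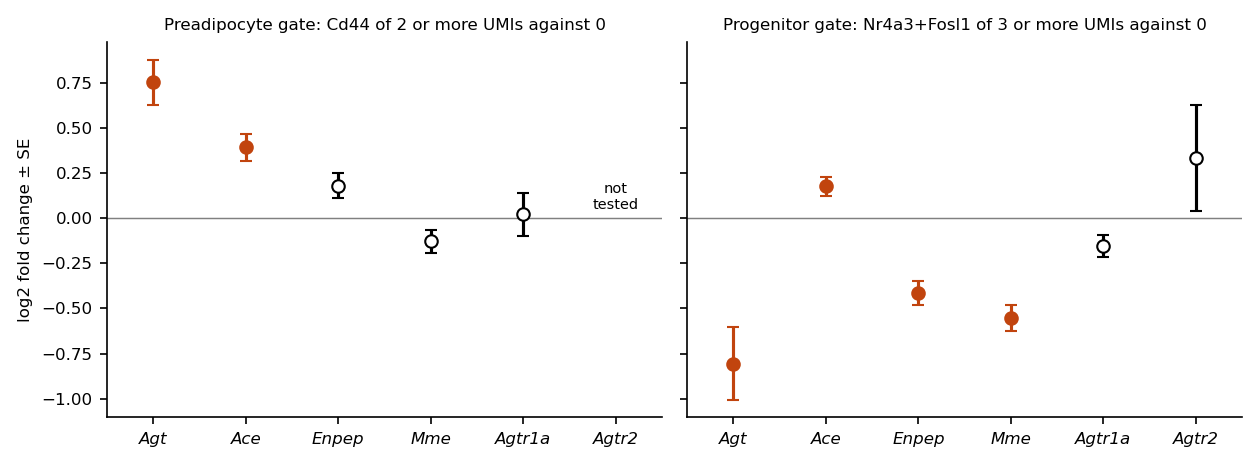
Log2 fold change ± SE (y axis, edgeR, sums of 3 mice) of each member between preadipocyte-gate cells with at least 2 and with 0 Cd44 UMIs (left) and between progenitor-gate cells with at least 3 and with 0 UMIs of Nr4a3 and Fosl1 (right); filled symbols have an adjusted p under 0.05. Agt is at 0.75 on the left and at -0.81 on the right.

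The genes whose pattern over the gates was most like each member's were found over 12 sums, the 3 gates and the ungated cells of 3 mice, with the mouse means taken off, among 5522 genes of at least 20 CPM. For Agt they were Cd9 (Pearson's r = 0.995), a tetraspanin, Fmo1 (0.995) and Serpina3n (0.993), a secreted serpin. For Ace they were Lvrn (0.999), itself an aminopeptidase, Procr (0.996), the endothelial protein C receptor, and Itga9 (0.993). Enpep was followed by Plin2 (0.992), a lipid droplet protein, Ermp1 (0.990) and Tpst1 (0.987), and Mme by Col27a1 (0.995), Fscn1 (0.993) and Enpp2 (0.993), which encodes autotaxin. Agtr1a was most like Man1a (0.979), Tgfb2 (0.977) and Abca1 (0.973). The sparse Agtr2 gave Wbp11, Cpsf2 and Taok3 at 0.922 to 0.961. Between members, Enpep and Mme had r = 0.932, Ace and Agtr1a 0.957, and Ace and Mme -0.864. The 12 sums come from the same 3 libraries and share the contrast between gates, so these values describe and carry no p.

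A list of 64 other genes of this and related peptide pathways was made from knowledge of these pathways, with earlier results of these data known. The calls below therefore describe the list and are no independent support. Of the 64 genes, 42 could be tested between the gates. Between preadipocyte and progenitor gates 29 of the 42 were called, 13 higher and 16 lower, which is 69.0% where 56.6% of all 13385 genes tested were called, 28.0% higher and 28.6% lower. Between regulatory and progenitor gates it was 28 (66.7%, with 44.7% of all genes), 14 in each direction, where 20.4% of all genes were higher and 24.3% lower. Between regulatory and preadipocyte gates it was 24 (57.1%, with 25.3% of all genes), 14 higher and 10 lower, where 12.6% of all genes were higher and 12.7% lower. The median log2 fold changes of the list were -0.08, -0.05 and 0.09, beside 0.02, -0.03 and -0.03 for all genes.

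Of the listed proteases that open the pathway, all but Ctsd were almost missing from these cells. Renin (Ren1) had 71 UMIs in all kept cells. The mast cell proteases Cma1, Mcpt4 and Cpa3, which include chymases that form angiotensin II, had 824, 1286 and 671 UMIs, of which 802, 1251 and 663 lay in the 6 cells that met the leukocyte gate. Ctsg had 1 UMI and Klk1 had 7. Only Ctsd and Atp6ap2, the (pro)renin receptor, were measurable in the gates, and Atp6ap2 was higher in the regulatory gate than in the progenitor gate by a log2 fold change of 0.57 (edgeR adjusted p = 0.000721). The receptors Agtr1b and Mas1 had 1 and 0 UMIs in all kept cells.

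Among 9 other peptidases that act on angiotensins, 5 were lower and 1 was higher in the preadipocyte than in the progenitor gate. Prcp, a lysosomal carboxypeptidase, was at 13.7 ± 2.32 CPM against 41.1 ± 4.20 (log2 fold change -1.63 ± 0.10, edgeR adjusted p = 8.57e-08). Anpep, aminopeptidase N, was at 53.4 ± 11.04 CPM in the regulatory gate and 106 ± 6.33 in the progenitor gate (edgeR adjusted p = 2.56e-06), and 6 of the 9 were lower there and 0 higher. Between regulatory and preadipocyte gates 2 were higher, Prcp among them (0.86 ± 0.15), and 1 lower, Nln (-0.39 ± 0.12), whose call was lost without mouse 1 (edgeR adjusted p = 0.181) or mouse 2 (0.333).

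Relatives of the member peptidases were called in 5, 6 and 6 of 6 tested in the 3 comparisons. Lvrn, laeverin, had 60.8 ± 1.11 CPM in the progenitor gate, 23.1 ± 2.38 in the regulatory gate and 6.37 ± 1.51 in the preadipocyte gate. It fell by 3.31 ± 0.11 on the log2 scale from progenitor to preadipocyte (edgeR adjusted p = 6.11e-10), which is the order of Ace. Aopep, aminopeptidase O, was higher in the regulatory gate, at 12.3 ± 2.21 CPM against 3.71 ± 0.185 in the progenitor gate and 6.29 ± 0.909 in the preadipocyte gate.

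Among 9 receptors and receptor partners, 3 rose and 3 fell from progenitor to preadipocyte, 3 rose and 1 fell from progenitor to regulatory, and 4 rose and 0 fell from preadipocyte to regulatory. Mtus1, which encodes a protein that binds the Agtr2 receptor, was at 34.0 ± 9.82 CPM in the regulatory, 24.3 ± 3.60 in the preadipocyte and 17.9 ± 1.35 in the progenitor gate. Arrb1, an arrestin that binds activated receptors, was at 19.2 ± 2.74, 15.5 ± 1.21 and 12.6 ± 0.721 CPM in that order. The changes from progenitor to regulatory were 0.89 ± 0.12 and 0.63 ± 0.11, with edgeR adjusted p = 8.65e-05 for Mtus1 and 0.000726 for Arrb1.

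Of 13 measured ligands and receptors of other peptides that Ace or Mme cut, or of their receptor partners, 10 were called between preadipocyte and progenitor gates, 4 higher and 6 lower. Edn1, endothelin 1, had 94.2 ± 17.5 CPM in progenitors, 5.61 ± 1.85 in preadipocytes and 2.38 ± 0.487 in regulatory cells. It fell by 4.11 ± 0.096 and by 5.49 ± 0.18 on the log2 scale from progenitors to these gates, with edgeR adjusted p = 9.12e-11 and 1.40e-09. Calcrl, the receptor of adrenomedullin and CGRP, was at 89.1 ± 31.3, 13.5 ± 4.89 and 4.82 ± 2.51 CPM in progenitor, preadipocyte and regulatory gates. Its partner Ramp1 was low in preadipocytes only among these gates, at 3.68 ± 1.41 CPM against 28.1 ± 4.47 in progenitors and 34.5 ± 3.07 in regulatory cells.

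The natriuretic peptide receptors differed between regulatory cells and both other gates. Npr3, the clearance receptor, was at 10.2 ± 0.633 CPM in regulatory cells and at 0.714 ± 0.0169 and 0.711 ± 0.207 CPM in progenitors and preadipocytes, with log2 fold changes of 3.82 ± 0.25 and 3.85 ± 0.28 (edgeR adjusted p = 2.88e-07 and 1.80e-06). Npr1, the signalling receptor of ANP and BNP, was at 30.7 ± 4.04 CPM in regulatory cells, 62.6 ± 14.2 in preadipocytes and 108 ± 1.81 in progenitors, and fell by 1.76 ± 0.14 from progenitor to regulatory (edgeR adjusted p = 1.08e-06). Tac1, the substance P precursor, was at 16.6, 12.6 and 37.4 CPM in regulatory cells of mice 1, 2 and 3, so mouse 3 stood apart, and at 14.5 ± 2.19 CPM in preadipocytes and 8.57 ± 2.31 in progenitors. Its calls against progenitors (edgeR adjusted p = 0.0092 and 0.0307) were lost for regulatory cells without mouse 3 (0.132) and for preadipocytes without mouse 1 (0.189).

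In the mineralocorticoid arm, Hsd11b2 encodes the enzyme that inactivates glucocorticoids and so leaves the mineralocorticoid receptor to aldosterone. Among the 3 gates it was highest in preadipocytes. It was at 24.2 ± 3.29 CPM there, 3.74 ± 0.778 in regulatory cells and 0.618 ± 0.0203 in progenitors, a log2 fold change of 5.23 ± 0.14 from progenitor to preadipocyte (edgeR adjusted p = 1.57e-10). Sgk1, a kinase that aldosterone and glucocorticoids induce, was at 367 ± 43.4, 198 ± 23.3 and 130 ± 10.1 CPM in the same order. Cells with Cited1 and Ptn had a higher mean of Hsd11b2, 61.0 CPM (23.3 to 98.3), which overlapped the preadipocyte gate over the mice. Of those 281 cells, 164 met the preadipocyte gate. The receptor Nr3c2 itself was at 3.48 to 5.64 CPM on average and did not pass in the 3 comparisons (edgeR adjusted p from 0.254 to 0.605).

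**Figure D5:**
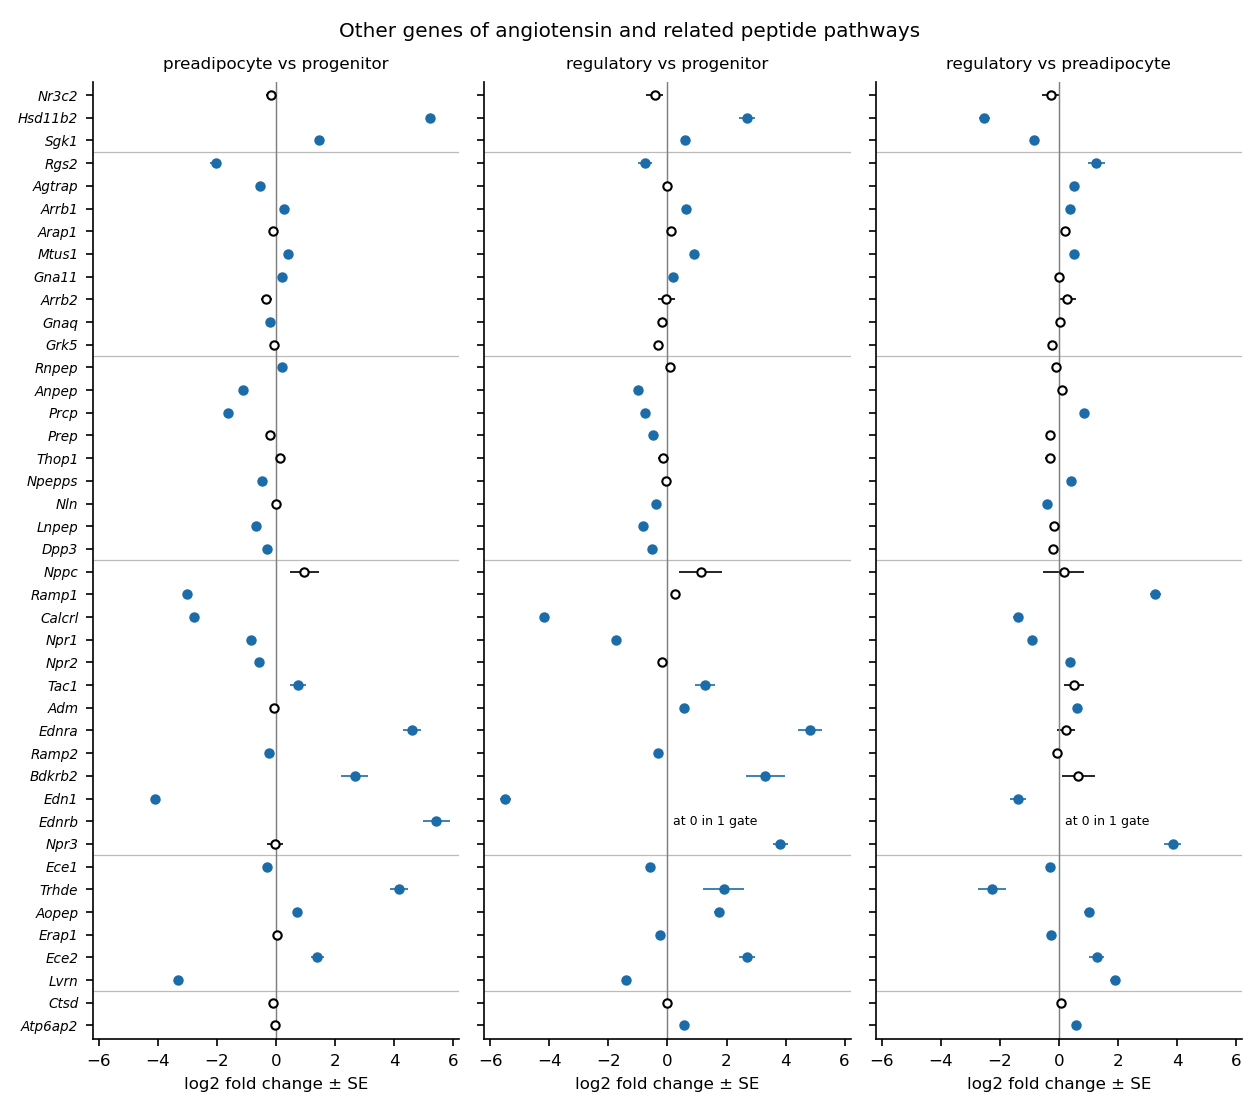
Log2 fold change ± SE (x axis, edgeR, sums of 3 mice) of the 42 tested pathway genes in the 3 gate comparisons; filled symbols have an adjusted p under 0.05, and lines part, from the top, the mineralocorticoid arm, receptors and partners, angiotensin-degrading peptidases, other peptides, relatives of the member peptidases and angiotensin-forming proteases. Edn1 is at -4.11 and -5.49 against progenitors, and Ednrb, without a UMI in the regulatory gate, has no symbol there.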

How the data were processed

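Single cells of 3 mice were measured with droplet libraries, 1 per mouse. The authors deposited counts of UMIs per gene and barcode, not normalized. Cell Ranger 4.0.0 is named in the file headers and 2.1.1 in the submitters' processing notes, with the build mm10. The files held 13698, 6872 and 16220 barcodes with at least 500 UMIs each. Barcodes with more than 500 genes and under 5% mitochondrial UMIs were kept, which left 12984, 6414 and 15179 cells with 94816520, 78108414 and 99328725 UMIs. Doublets were not called. As an alternative, the 5% of cells with the most UMIs were left out.

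UMIs were summed per mouse and gate. Sums were tested in edgeR 4.0.16 (R 4.3.3; filterByExpr, TMM, quasi-likelihood, Benjamini-Hochberg at 0.05 over all genes), with mouse as a block. Sums of 1 mouse come from the same animal, and their deviations from the gate means correlated at r = 0.446 to 0.845 over 7693 genes. For shares at equal depth, cells were thinned to 3000 UMIs and shallower cells were left out (1000 UMIs for cells of other types, a choice made after seeing the data). On simulated data for the Cd44 comparison, 185 of 200 altered genes were found and 7 of 11456 genes were called wrongly. There the spread was set and not estimated from the data, and each mouse's effect was the same in both groups, as the block assumes. The wrong calls therefore give no error rate for the real comparison. The share found among genes with fold changes as small as those of the members was not tested. Gene positions are from GENCODE M21 (GRCm38). DESeq2 1.42.0, limma 3.58.1, python 3.11.15, numpy, scipy, pandas and matplotlib were also used.

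The members, gates and gene lists were chosen with earlier results of these data known. Named genes are the 6 members. For each pair of gates, up to 5 pathway genes that rose most and up to 5 that fell most were also named, if called, if of 1 sign in 3 of 3 mice and if at 10 CPM or above in either gate. For each member, the 3 genes of most similar pattern are named. Ren1, Cma1, Mcpt4, Cpa3, Ctsg, Klk1, Ctsd, Atp6ap2, Agtr1b, Mas1, Nr3c2 and Ednrb fall outside this rule and were named after their values were seen. 1 item is not reported here.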

Additional observations from a re-analysis of the deposited data

Results flagged for a closer look

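The filter on genes and mitochondrial UMIs left out 2213 barcodes that no comparison uses, and 5 of the 6 members were above the level that 3 UMIs would give in each mouse. Agt was at 122 ± 100 CPM over the 3 mice (58.2, 238 and 70.5 CPM, 572 UMIs). Ace was at 416 ± 55.2 CPM, Enpep at 64.3 ± 24.3, Mme at 55.1 ± 15.5 and Agtr1a at 47.2 ± 12.6. Agtr2 had 6 UMIs in mouse 2 and 0 in the others, where 3 UMIs would be up to 2.77 CPM.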

How the results depend on the processing

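Of 154 counts under alternatives, 134 stayed within 1.5 times of the reported count. They were counts of calls and counts of members whose ratio between gates kept 1 sign in all mice used. Of 142 fold changes of members within gates, 119 kept their direction and their side of the threshold. Of 144 ratios between gates, 137 moved by less than the spread over mice. The fit without the replicate block, which ignores that sums come from the same mice, called 4014, 3183 and 1474 genes in the comparisons of preadipocyte with progenitor, regulatory with progenitor and regulatory with preadipocyte gates. It called 12 pathway genes in the last of these, 2 genes in the Cd44 comparison and 25 in the Nr4a3 and Fosl1 comparison, with 0 members in either by edgeR (0 and 1, Agt, at an unadjusted p under 0.05). DESeq2 called 805 and 1289 genes in those comparisons, and 2 members in the second. With cells thinned to 3000 UMIs, 1001 and 1759 genes were called in them, and 2174 between regulatory and preadipocyte gates. Gate limits raised by 1 UMI left 2 members called in the Nr4a3 and Fosl1 comparison. Leaving out a mouse gave 2094 (without mouse 3) to 2606 calls (without mouse 1) between regulatory and preadipocyte gates, and 2251 without mouse 2. It gave 1076 (without mouse 2) to 1679 in the Cd44 comparison, and 1621 (without mouse 3) to 3295, with 2 to 4 members, in the Nr4a3 and Fosl1 comparison. Agt lost its call there under DESeq2 (adjusted p = 0.0622), without mouse 3 (0.0688), with raised limits (0.0763) and when thinned (0.157), and Ace without mouse 1 (0.0844) or mouse 3 (0.0697), with DESeq2 (0.193) and with raised limits (0.066). Agtr1a had a fold change of 0.02 in the Cd44 comparison, which turned to -0.076 with library size, -0.0021 in DESeq2, -0.16 when thinned, and -0.12 to 0.14 when a mouse was left out. The Agtr2 ratio of the regulatory to the progenitor gate, -0.71, is a mean over mice 2 and 3, since mouse 1 had no UMI in the regulatory gate. It turned to 1.21 with raised limits and 1.25 when thinned. Without a mouse it ranged from -2.42 to 0.99, where each end rests on 1 mouse. The Enpep ratio of the same gates ranged from -0.31 to 0.057 without a mouse. The cause was not tested. Mouse 2 had fewer but deeper cells, and Agtr2 was too rare in the regulatory gate for a direction.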
